A study of Mus musculus with 6 samples.

Results

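The mitochondrial ribosomal proteins are the nuclear-encoded protein parts of the ribosome that works inside mitochondria. Their genes were taken by name: every gene of the deposited expression table whose symbol starts with Mrpl or Mrps followed by a digit. No measured value entered that choice. It gave 77 of the 14003 genes in the table, 48 named for the large subunit (Mrpl) and 29 named for the small subunit (Mrps), spread over 17 chromosomes. Mrpl53, which the GENCODE M21 annotation also lists as protein coding, was not analysed here.

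RNA was sequenced from cells labelled as MC3T3-E1, a mouse preosteoblast cell line, with the genotype WT. The SAS group held 3 libraries of cells exposed to 200 µM sulfasalazine, an anti-inflammatory drug, over 24 h, and the CTL group held 3 libraries of cells left untreated. No vehicle is named for either group, and all 6 libraries share 1 batch label, 1 cell line and the same growth medium. Nothing in the labels tells whether the 3 libraries of a group came from separate cultures, so the spread between them, and every p-value built on it, may be technical.

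Mitochondria keep a small genome that encodes both rRNAs of their ribosome and a few hydrophobic subunits of the respiratory chain and the ATP synthase. Every ribosomal protein is instead encoded in the nucleus, translated in the cytosol, imported and assembled on the rRNAs. Compared with the bacterial ribosome it descends from, the mammalian mitochondrial ribosome has less rRNA and more protein, and many of its proteins have no bacterial counterpart. The small subunit reads the mRNA, and the large subunit joins the amino acids and anchors the ribosome to the inner membrane.

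Levels are given in FPKM, fragments scaled to gene length and library size. The reads behind them, recovered from the FPKM values, numbered 19247898 to 21579133 per SAS library and 15980944 to 20828708 per CTL library, with 83 to 5527 reads per member and library. The test took in the 10338 genes that reached 1 FPKM in 3 or more libraries. Of these, 66.5% differed between the groups at an adjusted p under 0.05 (limma on log2(FPKM + 1), Benjamini-Hochberg over all genes tested); "rose" and "fell" below mean past this threshold. The first principal component over these genes held 88.6% of the variance, with SAS scores of 54.1 to 59.2 against -65.3, -63.2 and -42.6 for CTL replicates 1 to 3, so that CTL replicate 3 stood nearer to the SAS libraries than its fellows. Of 14 osteoblast markers 9 were in the table. Spp1 led them with 947 FPKM in SAS and 1868 FPKM in CTL libraries, Runx2 averaged 18.1 FPKM in SAS and 23.5 FPKM in CTL libraries, Sparc averaged 23.1 FPKM in SAS and 22.4 FPKM in CTL libraries, and the other 6, among them Sp7 and Col1a1, averaged under 1 FPKM. Their sum ran from 890 to 1110 FPKM in SAS and from 1550 to 2143 FPKM in CTL libraries. Of 6 fibroblast markers 4 were in the table. Their sum was 872 to 899 FPKM in SAS and 323 to 495 FPKM in CTL libraries. Nearly all of it was Vim, and Pdgfra and Dcn were under 1 FPKM. Of 6 epithelial markers 4 were in the table, Epcam and Cldn4 not among them. These 4 summed to 1884 to 2093 FPKM in SAS and 1293 to 1452 FPKM in CTL libraries. Krt8 and Krt18 rose (902 and 913 FPKM in SAS, 287 and 708 FPKM in CTL libraries). Krt19 fell (154 FPKM in SAS, 350 FPKM in CTL libraries) and Cdh1 did not pass. Of 5 macrophage markers 3 were in the table. Cd68 averaged 22.04 FPKM in SAS and 42.6 FPKM in CTL libraries, while Csf1r and Lyz2 were under 1 FPKM in every library. Spp1, Runx2 and Sparc were thus present, but 6 osteoblast markers were under 1 FPKM while keratins were abundant. The markers therefore do not all go with the preosteoblast label. The identity of the cells and the part of these markers in the results were not tested. In such bulk RNA, fewer cells of a type and less RNA per cell cannot be told apart.

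All 77 members passed the filter on low values. Sulfasalazine was accompanied by changes in both directions: 30 members rose and 29 fell, and 18 did not pass the test. These shares, 39.0% higher and 37.7% lower, stand beside 37.2% higher and 29.3% lower over all genes tested. The members' median log2 fold change was 0.09 on the log2(FPKM + 1) scale, SAS over CTL, against 0.08 over all genes, and single members ran from -2.12 to 2.00. The median size of a change, in either direction, was 0.52 among members and 0.68 over all genes. In 31 members all 3 SAS values lay above all 3 CTL values, and in 30 they lay below; over all genes these shares were 40.3% and 31.1%. A change of at least 1 on the log2 scale was reached by 13 rises, against a background of 19.2%, and by 8 falls, against a background of 13.9%. In the authors' deposited table, whose selection adds a log2 fold change beyond 1 to the adjusted p, 9 members were up and 8 down, beside 18.8% and 16.1% of all its genes. Without CTL replicate 3, 34 members rose and 32 fell. Over all genes 4205 rose and 3417 fell of 10204 tested in that fit, beside 3846 and 3032 of 10338 with all libraries. The members' median in that fit was 0.20 against 0.10 over all genes.

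**Figure D1:**
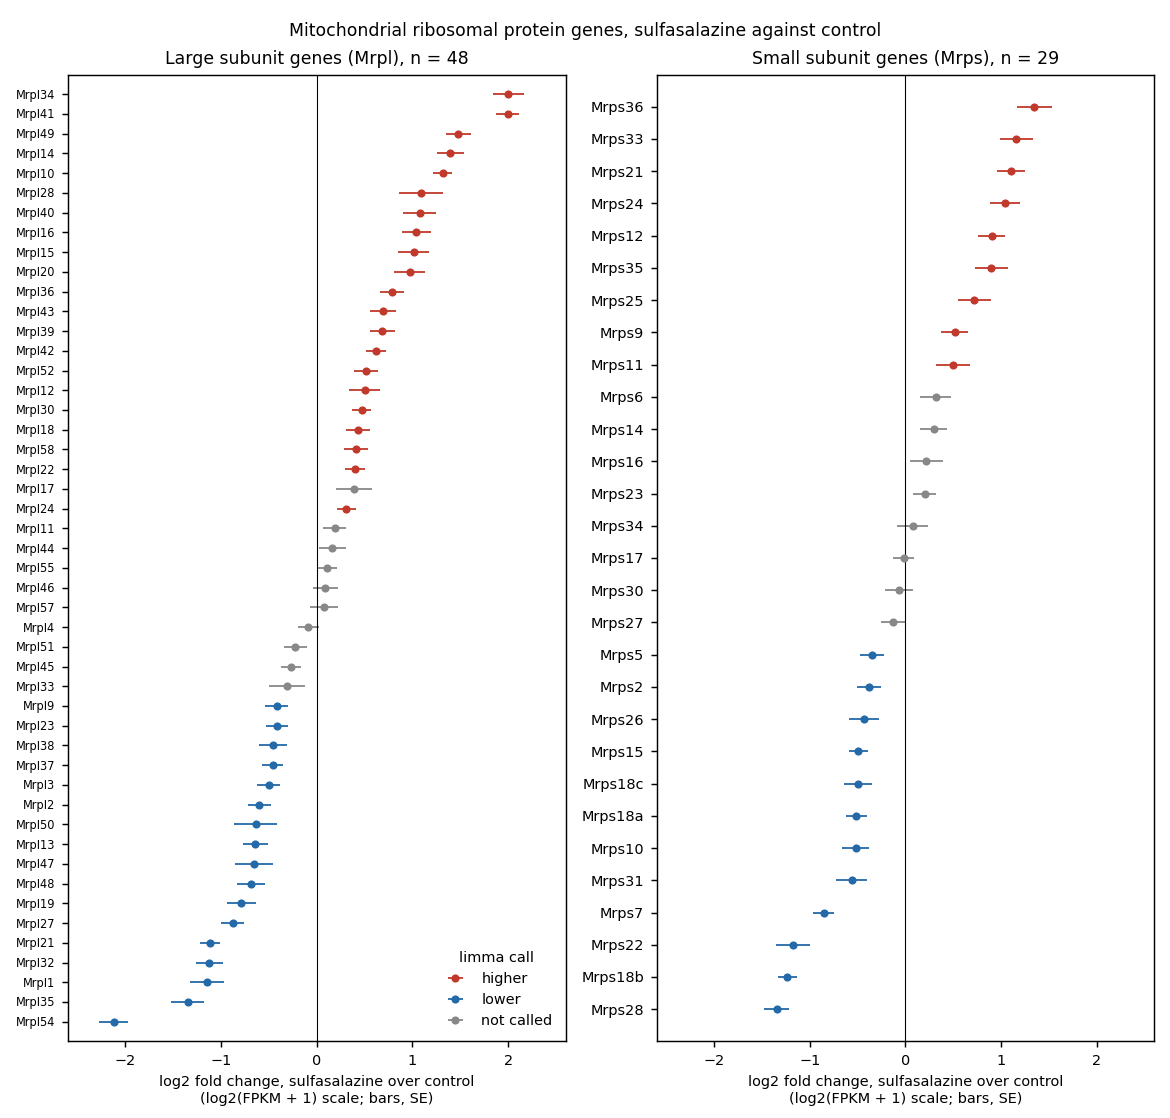
Log2 fold change of each member, SAS over CTL on the log2(FPKM + 1) scale (x axis), with 1 gene per line and bars for the standard error (3 libraries a group); colour gives the limma call. Mrpl genes are on the left and Mrps genes on the right. Both subunits run through 0, with Mrpl34 (2.00) and Mrpl54 (-2.12) at the ends.

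Among the large-subunit genes 21 rose (43.75%), 17 fell (35.4%) and 10 did not pass, beside 37.2% higher and 29.3% lower over all genes tested. Mrpl34, the homologue of a small basic protein of the bacterial large subunit, is ENSMUSG00000034880 at chr8:71464959-71465747 (GRCm38, plus strand). Its level was 125, 123 and 92.9 FPKM in SAS replicates 1 to 3, against 24.0, 25.7 and 33.1 FPKM in CTL replicates 1 to 3. Every SAS library was above every CTL library, with SAS replicate 3 the lowest of the treated ones, and the log2 fold change was 2.00 (SE 0.16, limma adjusted p = 2.85e-05). Mrpl41, a mitochondria-specific protein without bacterial counterpart, had 78.6, 85.1 and 85.3 FPKM in SAS libraries and 17.6, 20.5 and 22.4 FPKM in CTL libraries. Its groups were likewise far apart (log2 fold change 1.99, SE 0.12, adjusted p = 9.11e-06), and 11.3% of its 50-base words are also present in further genes, the processed pseudogene Gm6434 among them.

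Mrpl49, another mitochondria-specific member, had 116, 114 and 112 FPKM in SAS libraries and 34.1, 40.0 and 47.8 FPKM in CTL libraries. The SAS values were nearly equal and all above the CTL values (log2 fold change 1.48, SE 0.13, adjusted p = 4.24e-05). Mrpl14, whose bacterial homologue sits on the face that meets the small subunit, had 136, 131 and 121 FPKM in SAS libraries and 45.9, 41.7 and 59.2 FPKM in CTL libraries. It rose with no overlap (log2 fold change 1.40, SE 0.14, adjusted p = 7.42e-05), and 11.2% of its exonic bases overlap other genes, Tmem63b on the opposite strand among them. Whether the counting used strand is not stated in the labels, so reads of such overlaps cannot be told apart.

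The largest fall was that of Mrpl54, a mitochondria-specific member, ENSMUSG00000034932 at chr10:81264713-81266934 (GRCm38, minus strand). Its level was 79.3, 77.8 and 60.02 FPKM in SAS libraries, against 285, 295 and 372 FPKM in CTL libraries. The lowest CTL library was above every SAS library, and the log2 fold change was -2.12 (SE 0.15, adjusted p = 1.62e-05). It was the most abundant of all members in CTL replicates 1 and 2, a place held by Mrpl38 in CTL replicate 3 and in all SAS libraries.

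Mrpl35, a bacterial-type protein, had 9.20, 10.8 and 10.4 FPKM in SAS libraries and 30.6, 30.9 and 21.5 FPKM in CTL libraries. CTL replicate 3 was the lowest control yet stayed above all SAS values (log2 fold change -1.35, SE 0.17, adjusted p = 0.00024). Mrpl1, whose bacterial homologue forms the mobile stalk that helps spent tRNA leave the ribosome, was the least abundant member in all 6 libraries: 1.67, 1.6 and 2.44 FPKM in SAS libraries against 5.49, 6.23 and 4.48 FPKM in CTL libraries. The groups did not overlap (log2 fold change -1.14, SE 0.18, adjusted p = 0.000712), and at such levels the added 1 FPKM understates the change. Mrpl32, a protein that is trimmed by the m-AAA protease before it joins the ribosome, had 17.6, 15.0 and 17.5 FPKM in SAS libraries and 33.1, 37.0 and 42.8 FPKM in CTL libraries. All its CTL values were above all its SAS values (log2 fold change -1.12, SE 0.14, adjusted p = 0.000216).

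The stalk that calls translation factors to the large subunit is made of Mrpl10, Mrpl11 and Mrpl12. Mrpl10, its anchor, had 93.9, 95.2 and 87.4 FPKM in SAS libraries and 38.4, 34.4 and 36.6 FPKM in CTL libraries. It rose with tight, separate groups (log2 fold change 1.32, SE 0.10, adjusted p = 2.1e-05), while 14.1% of its exonic bases overlap other genes, the opposite-strand transcript Gm11574 among them. Mrpl12, which forms the flexible arm and is also known to bind the mitochondrial RNA polymerase, had 205, 215 and 193 FPKM in SAS libraries and 112, 150 and 178 FPKM in CTL libraries. The highest control came close to the lowest SAS value; the log2 fold change of 0.50 (SE 0.17, adjusted p = 0.0273) lost its call without SAS replicate 1 or 2 or CTL replicate 1 or 2, and also with median-of-ratios scaling and with voom on recovered reads. Its adjusted p ran from 0.00258 to 0.0871 over the limma fits that left out 1 library. Mrpl11, at the stalk base, had 42.9, 45.3 and 37.2 FPKM in SAS libraries and 35.2, 35.8 and 38.5 FPKM in CTL libraries, with overlap between the groups (log2 fold change 0.19, SE 0.12, adjusted p = 0.188).

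The other large-subunit landmarks were split, beside shares of 37.2% higher and 29.3% lower over all genes tested. The central protuberance, the crown that faces the small subunit, is represented by 7 genes. Of these, Mrpl18, Mrpl40 and Mrpl58 rose (42.9%) and Mrpl27, Mrpl38 and Mrpl48 fell (42.9%). Mrpl38, the most abundant gene of the protuberance, had 236, 238 and 213 FPKM in SAS libraries and 284, 282 and 387 FPKM in CTL libraries. CTL replicate 3 was well above the other controls, and the fall of 0.46 (SE 0.14, adjusted p = 0.0218) lost its call when any 1 of the 3 SAS libraries was left out. Of 6 genes around the exit tunnel, through which the new chain leaves, Mrpl22 and Mrpl24 rose (33.3%) and Mrpl23 and Mrpl47 fell (33.3%). The log2 fold changes of these 6 were within 0.65 of 0. Leaving out 1 library ended the call of Mrpl24 in 5 of the 6 fits, that of Mrpl47 in 3 and that of Mrpl22 in 1, and voom on recovered reads ended those of Mrpl22 and Mrpl24. Mrpl52, a mitochondria-specific gene among the 3 most abundant of its subunit, had 205, 222 and 205 FPKM in SAS libraries and 127, 170 and 148 FPKM in CTL libraries, with no overlap (log2 fold change 0.51, SE 0.13, adjusted p = 0.00707).

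**Figure D2:**
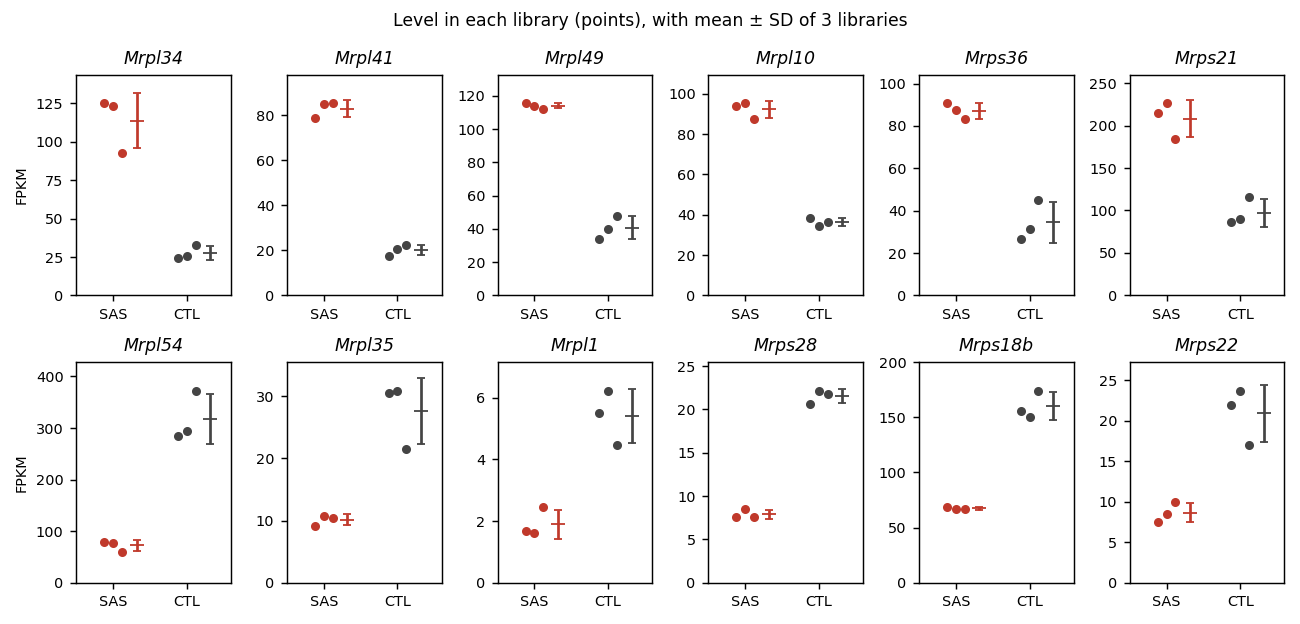
FPKM (y axis) of 12 members in each library, with SAS libraries on the left and CTL libraries on the right of each panel; points are replicates 1 to 3 and bars the mean ± SD (n = 3). The upper panels show members that rose and the lower ones members that fell. In none of the 12 do the groups overlap, which was a condition for choosing each of them except the stalk gene Mrpl10.

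Among the small-subunit genes 9 rose (31.0%), 12 fell (41.4%) and 8 did not pass, beside 37.2% higher and 29.3% lower over all genes tested. Here too the 4 largest rises and 4 largest falls were chosen among members whose groups do not overlap. Mrps36 led the rises with 90.7, 87.4 and 83.3 FPKM in SAS libraries and 26.8, 31.3 and 45.2 FPKM in CTL libraries. The groups were apart (log2 fold change 1.35, SE 0.18, adjusted p = 0.000312). Despite its name the protein is known as a part of the 2-oxoglutarate dehydrogenase complex and is not seen in mammalian mitoribosome structures; 17.3% of its 50-base words are found in further genes, the pseudogene Mrps36-ps1 among them.

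Mrps33, a mitochondria-specific protein, had 43.9, 46.9 and 31.5 FPKM in SAS libraries and 16.1, 17.4 and 18.9 FPKM in CTL libraries, with SAS replicate 3 the lowest treated one (log2 fold change 1.16, SE 0.17, adjusted p = 0.000472). Mrps21, homologous to bacterial S21 and the most abundant small-subunit gene in SAS libraries, had 215, 226 and 184 FPKM in SAS libraries and 86.0, 89.5 and 116 FPKM in CTL libraries (log2 fold change 1.10, SE 0.14, adjusted p = 0.000264). In both genes all SAS values were above all CTL values. Mrps24, the homologue of bacterial S3 near the mRNA entry, had 112, 109 and 95.9 FPKM in SAS libraries and 42.4, 48.6 and 63.4 FPKM in CTL libraries. It rose without overlap (log2 fold change 1.04, SE 0.16, adjusted p = 0.000562), and 15.4% of its exonic bases overlap other genes, Urgcp on the same strand among them.

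Mrps28, a bacterial-type protein, fell furthest in this subunit: 7.56, 8.5 and 7.58 FPKM in SAS libraries against 20.7, 22.2 and 21.8 FPKM in CTL libraries. Both groups were tight and far apart (log2 fold change -1.35, SE 0.13, adjusted p = 6.16e-05). Mrps22, a mitochondria-specific protein, had 7.54, 8.54 and 9.93 FPKM in SAS libraries and 21.9, 23.7 and 17.0 FPKM in CTL libraries, again without overlap (log2 fold change -1.17, SE 0.17, adjusted p = 0.000521). Mrps7, which in bacteria organises the head of the subunit, had 63.7, 64.6 and 58.4 FPKM in SAS libraries and 108, 108 and 125 FPKM in CTL libraries. All SAS values were below all CTL values (log2 fold change -0.86, SE 0.11, adjusted p = 0.000211). Mrps15, among the 3 most abundant small-subunit genes, had 90.7, 97.2 and 84.0 FPKM in SAS libraries and 127, 121 and 135 FPKM in CTL libraries, also apart (log2 fold change -0.49, SE 0.10, adjusted p = 0.0032).

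The mouse genome holds 3 paralogues of bacterial S18, which occupy different places in the mitoribosome, and all 3 fell. Mrps18b had 69.0, 66.5 and 66.7 FPKM in SAS libraries and 156, 150 and 174 FPKM in CTL libraries (log2 fold change -1.23, SE 0.10, adjusted p = 2.62e-05), with 30.5% of its exonic bases in other genes, the antisense gene Gm16279 among them. Mrps18a, which structures place in the large subunit, had 83.1, 87.5 and 74.4 FPKM in SAS libraries and 106, 121 and 124 FPKM in CTL libraries (log2 fold change -0.51, SE 0.11, adjusted p = 0.00401). In neither did the groups overlap. Mrps18c had 7.87, 8.43 and 9.26 FPKM in SAS libraries and 12.9, 13.3 and 11.1 FPKM in CTL libraries; its fall of 0.50 (SE 0.15, adjusted p = 0.0164) lost the call without SAS replicate 1 or 2 or CTL replicate 2, and 23.2% of its exonic bases overlap other genes, Gm43511 among them. Mrps30, also a large-subunit protein by structure, had 14.4, 13.2 and 12.9 FPKM in SAS libraries and 12.8, 13.6 and 16.5 FPKM in CTL libraries, with overlap (log2 fold change -0.07, SE 0.15, adjusted p = 0.694; 0.03 without CTL replicate 3).

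Set side by side, the large-subunit genes had a median log2 fold change of 0.14 and the small-subunit genes one of -0.02. With Mrps30 and Mrps18a moved to the large subunit and Mrps36 left out, the large subunit counted 21 rises and 18 falls among 50 genes (median 0.10), and the small one 8 rises and 11 falls among 26 (median 0.03), so that the sign of the small-subunit median depended on this assignment. It also turned to 0.03 without CTL replicate 3 and to 0.04 without SAS replicate 3. Without SAS replicate 2 only 7 small-subunit genes fell, since Mrps2, Mrps5, Mrps18c, Mrps26 and Mrps31 lost their calls. Over all genes 2437 of 10010 tested fell in that fit, beside 3032 of 10338 with all libraries. The ratio of summed large-subunit to summed small-subunit FPKM was 2.08, 2.08 and 2.17 in SAS libraries and 2.01, 2.06 and 2.02 in CTL libraries; the groups did not overlap, but the closest values were SAS replicate 2 and CTL replicate 2, and 3 against 3 libraries cannot give an exact permutation p below 0.1. By structural assignment the ratios were 2.47, 2.46 and 2.57 in SAS libraries and 2.38, 2.49 and 2.41 in CTL libraries, and these overlapped.

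By ancestry, the 47 members with a bacterial homologue held 18 rises (38.3%) and 21 falls (44.7%). The 30 mitochondria-specific members held 12 rises (40.0%) and 8 falls (26.7%). Over all genes tested the shares were 37.2% and 29.3%. The medians were -0.02 for the homologues and 0.10 for the mitochondria-specific members. These shares were not tested against each other. Mrps12, the homologue of the protein that guards decoding accuracy in bacteria, was among the homologues that rose, with 98.1, 108 and 88.5 FPKM in SAS libraries and 46.9, 47.6 and 62.4 FPKM in CTL libraries. Its groups did not overlap.

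The remaining large-subunit rises were those of Mrpl15, Mrpl16, Mrpl18, Mrpl20, Mrpl28, Mrpl30, Mrpl36, Mrpl39, Mrpl40, Mrpl42, Mrpl43 and Mrpl58, with log2 fold changes from 0.41 (Mrpl58) to 1.09 (Mrpl28). In each of these 12 all SAS values were above all CTL values. Mrpl16, whose bacterial homologue lines the tRNA path, averaged 20.3 ± 0.114 FPKM in SAS and 9.45 ± 1.59 FPKM in CTL libraries (SD, n = 3 each). Mrpl28 averaged 92.9 ± 7.11 FPKM in SAS and 44.9 ± 16.6 FPKM in CTL libraries, where CTL replicate 3 at 63.6 FPKM stood far above replicates 1 and 2 at 32.3 and 38.6 FPKM. Mrpl58, which encodes a peptidyl-tRNA hydrolase that rescues stalled ribosomes, averaged 51.8 ± 3.31 FPKM in SAS and 38.9 ± 5.21 FPKM in CTL libraries and lost its call in 4 of the 6 fits without 1 library, as Mrpl18 did in 2.

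The remaining large-subunit falls were those of Mrpl2, Mrpl3, Mrpl9, Mrpl13, Mrpl19, Mrpl21, Mrpl27, Mrpl37, Mrpl48 and Mrpl50, from -0.42 (Mrpl9) to -1.12 (Mrpl21). Mrpl9 lost its call without SAS replicate 1. Mrpl21 averaged 35.2 ± 1.87 FPKM in SAS and 77.3 ± 3.21 FPKM in CTL libraries. Mrpl2 and Mrpl3, homologues of proteins at the core of the bacterial large subunit, averaged 115 ± 8.90 and 27.1 ± 1.99 FPKM in SAS libraries, against 175 ± 22.7 and 38.8 ± 2.71 FPKM in CTL libraries. Only Mrpl50 overlapped between the groups among the members that passed the test, with 4.96, 5.6 and 7.87 FPKM in SAS libraries and 11.4, 11.6 and 7.39 FPKM in CTL libraries, and its call was lost in 4 of the 6 fits without 1 library. Mrpl4, Mrpl17, Mrpl33, Mrpl44, Mrpl45, Mrpl46, Mrpl51, Mrpl55 and Mrpl57 did not pass, with log2 fold changes from -0.31 (Mrpl33) to 0.39 (Mrpl17) and adjusted p values from 0.0581 (Mrpl45) upwards. Mrpl45 and Mrpl51 were nevertheless lower in each SAS library than in each CTL library.

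In the small subunit Mrps9, Mrps11, Mrps25 and Mrps35 also rose, from 0.50 (Mrps11) to 0.90 (Mrps35). Mrps35, a mitochondria-specific protein, averaged 17.1 ± 1.99 FPKM in SAS and 8.78 ± 1.71 FPKM in CTL libraries. Mrps2, Mrps5, Mrps10, Mrps26 and Mrps31 also fell, by 0.35 (Mrps5) to 0.56 (Mrps31), and none of these 5 overlapped between the groups. Mrps2, Mrps5 and Mrps26 each lost the call in 4 of the 6 fits without 1 library and with the replicate number as a block, and Mrps10 and Mrps31 in 1 fit without 1 library. Mrps6, Mrps14, Mrps16, Mrps17, Mrps23, Mrps27 and Mrps34 did not pass, from -0.13 (Mrps27) to 0.31 (Mrps6). Mrps14 was nevertheless higher in each SAS library than in each CTL library. The call of 43 members held in each of the 6 fits that left out 1 library, 24 rises and 19 falls. Leaving out 11 members that share over 20% of their exonic bases or 50-base words with other genes left 26 rises and 24 falls; among the 11 was Mrps34, with 77.8% of its exonic bases in other genes, Mapk8ip3 among them.

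The members' summed level was 4431, 4545 and 4134 FPKM in SAS libraries and 3785, 3939 and 4578 FPKM in CTL libraries. CTL replicate 3 was the highest of all 6, so the groups overlapped. As a share of recovered reads the members took 0.402 to 0.436% of a SAS library and 0.382 to 0.459% of a CTL library. The SD of log2 FPKM over the 77 genes did not overlap between the groups. It was 1.46, 1.45 and 1.33 in SAS libraries and 1.22, 1.21 and 1.30 in CTL libraries, again with CTL replicate 3 nearest to the SAS group. The same SD was not computed over all genes, so whether this spread is particular to the members is not known. The order of the 77 mean levels in SAS against CTL libraries had a Spearman rho of 0.79, a description across genes of the same libraries.

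**Figure D3:**
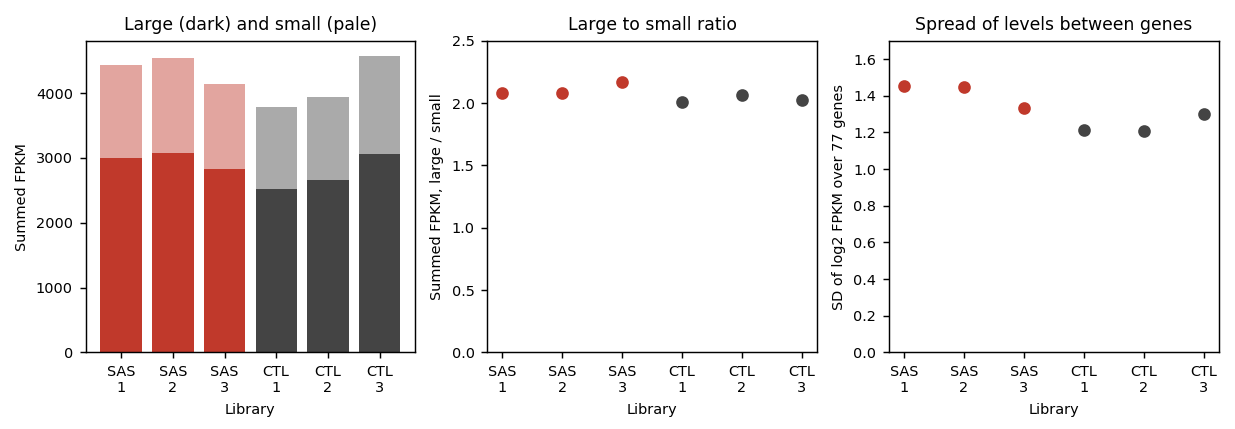
The left panel stacks the summed FPKM (y axis) of large-subunit (dark) and small-subunit (pale) genes per library; the middle panel gives their ratio; the right panel gives the SD of log2 FPKM over the 77 genes. SAS libraries stand left of CTL libraries; summed levels overlap between the groups, while the ratio (2.08 to 2.17 in SAS, 2.01 to 2.06 in CTL libraries) and the SD (1.33 to 1.46 in SAS, 1.21 to 1.30 in CTL libraries) do not.

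Members that rose were, by their medians, shorter than members that fell. Their median exonic length in GENCODE M21 was 1666 bases for the rises and 3690 bases for the falls, with medians of 4 and 7 exon blocks; over all genes tested these lengths were 4159 bases for the rises and 4751 bases for the falls. Across members, log2 fold change and exonic length had a Spearman rho of -0.32 (n = 77), against -0.12 over 10332 genes tested. Exceptions ran both ways: the falling Mrpl54 and Mrps28 have 825 and 783 exonic bases, and the rising Mrps35, Mrpl15 and Mrps25 have 8631, 8487 and 6576. GC content of the transcripts went with the fold change less among members (rho 0.09) than over all genes tested (rho 0.27). The part of length or RNA quality in the calls was not tested.

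The promoters of members were compared through RefSeq windows on GRCm38.p6, from 250 bases before to 50 bases after the annotated start, which matched 68 of the 77 members with 74 windows. Those of Mrpl4, Mrpl13, Mrpl15, Mrpl19, Mrpl38, Mrpl54, Mrps28, Mrps34 and Mrps35 were not matched. Letters of factors known for nuclear genes of mitochondrial proteins were searched on both strands. The ETS letters CCGGAAG, bound by GABPA, occurred in 33.8% of member windows, 19.2% of windows of tested genes and 8.9% of all 32851 windows. The YY1 letters AAGATGGC occurred in 16.2%, 4.8% and 2.7%. The NRF1 palindrome, GCGCA followed directly by its reverse complement TGCGC, occurred in 4.1%, 2.2% and 1.0%, the first of these being only 3 of 74 windows. The last 3 ETS letters equal the first 3 YY1 letters, so 1 stretch can hold both. The SP1 letters GGGCGG went the other way, in 52.7% of member windows and 65.3% of windows of tested genes.

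Within the members, the ETS letters stood in 32.1% of windows of genes that rose and 31.0% of windows of genes that fell. For genes that did not pass the share was 41.2%. Some genes have several windows, and counted by gene these shares were 32.1%, 37.5% and 43.8%. For the YY1 letters the shares were 21.4%, 17.2% and 5.9% of windows (the last being 1 of 17) and 21.4%, 20.8% and 6.2% of genes. The same letters thus lay before genes that moved in opposite directions. To show this, the 250 bases before the start are printed for the largest rise and the largest fall that hold ETS letters there, Mrpl34 (chr8:71464676-71464925, plus strand) and Mrps22 (chr9:98601680-98601929, minus strand), and for those that hold the NRF1 letters, Mrpl39 (chr16:84735245-84735494, minus strand) and Mrpl32 (chr13:14613038-14613287, minus strand). Each reads 5′ to 3′ towards the start, and capitals mark ETS, YY1 and NRF1 letters on either strand.
Mrpl34: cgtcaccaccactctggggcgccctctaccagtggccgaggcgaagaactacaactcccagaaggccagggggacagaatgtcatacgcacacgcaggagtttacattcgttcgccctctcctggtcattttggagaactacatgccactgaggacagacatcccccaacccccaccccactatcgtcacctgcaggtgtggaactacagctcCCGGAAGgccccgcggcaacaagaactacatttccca
Mrps22: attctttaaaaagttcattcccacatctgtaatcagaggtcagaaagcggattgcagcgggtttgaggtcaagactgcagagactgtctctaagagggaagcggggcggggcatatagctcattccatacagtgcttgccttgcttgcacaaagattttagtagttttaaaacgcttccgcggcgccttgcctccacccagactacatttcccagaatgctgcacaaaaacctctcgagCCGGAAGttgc
Mrpl39: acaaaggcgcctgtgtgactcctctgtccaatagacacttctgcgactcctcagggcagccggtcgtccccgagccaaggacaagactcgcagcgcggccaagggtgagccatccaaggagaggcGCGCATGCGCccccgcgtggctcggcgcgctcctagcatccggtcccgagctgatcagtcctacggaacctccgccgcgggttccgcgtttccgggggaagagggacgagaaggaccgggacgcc
Mrpl32: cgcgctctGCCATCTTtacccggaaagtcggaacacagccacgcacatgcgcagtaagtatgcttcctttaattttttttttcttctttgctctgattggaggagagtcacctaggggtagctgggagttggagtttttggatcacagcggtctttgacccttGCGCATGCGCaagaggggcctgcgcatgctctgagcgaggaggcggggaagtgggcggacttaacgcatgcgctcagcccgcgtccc
The ETS letters begin 37 bases before the start in Mrpl34, which rose by 2.00 on the log2 scale, and 11 bases before it in Mrps22, which fell by 1.17. The NRF1 letters begin 125 bases before the start in Mrpl39, which rose by 0.69, and 87 bases before it in Mrpl32, which fell by 1.12 and also holds the YY1 letters on the opposite strand. A match of letters is not a binding site, and binding was not measured.

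A start of another protein-coding gene on the opposite strand within 1000 bases was found for 33 of 77 members, 42.9%, against 15.6% of 13982 genes of the table. All members are protein coding and passed the filter on low values, while the 13982 genes were not limited to such genes. Of the 29 partners that were tested, 10 passed the test beside a member that also passed. Over all genes tested 66.5% passed, and among members 76.6%. Those are shares of single genes, while the 10 pairs needed both genes to pass, so they cannot be compared directly. These pairs were not set against pairs of unrelated genes. In 3 of the 10 pairs both rose, in 4 both fell, and in 3 the member fell and the partner rose. The pairs named next were chosen after their values were seen. Mrps18b and Ppp1r10, whose starts lie 45 bases apart, both fell: Ppp1r10, which binds protein phosphatase 1, averaged 84.8 FPKM in SAS and 242 FPKM in CTL libraries (log2 fold change -1.49). Mrpl2 fell by 0.60 while Klc4, a kinesin light chain whose start is 207 bases away, averaged 27.4 FPKM in SAS and 4.28 FPKM in CTL libraries (log2 fold change 2.43).

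Mrpl54 starts 26 bases from Apba3, an adaptor protein gene that had 119, 120 and 113 FPKM in SAS libraries and 105, 130 and 128 FPKM in CTL libraries. Apba3 overlapped between the groups (log2 fold change -0.04, limma adjusted p = 0.783), beside the -2.12 of Mrpl54. Mrpl49 rose by 1.48 next to Fau, a cytosolic ribosomal protein gene with its start 59 bases away, at a log2 fold change of -0.32 that did not pass. Mrpl46 and Mrps11 form a pair of members with starts 412 bases apart; Mrps11 averaged 39.4 FPKM in SAS and 28.1 FPKM in CTL libraries, and Mrpl46 averaged 16.3 FPKM in SAS and 15.3 FPKM in CTL libraries. Mrps11 rose but lost its call in 5 of the 6 fits that left out 1 library, and Mrpl46 did not pass. Over 28 distinct pairs the fold changes of member and partner had a Spearman rho of 0.13.

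Of the 5 mitoribosome proteins that carry other names 1 rose and 2 fell. For this list and those below, the shares over all genes tested were 37.2% higher and 29.3% lower. Dap3, a GTP-binding protein of the small subunit, was the rise, with 82.8, 83.1 and 81.4 FPKM in SAS libraries and 60.3, 61.0 and 67.3 FPKM in CTL libraries (log2 fold change 0.39, SE 0.10, adjusted p = 0.00787). Chchd1 had 42.8, 46.5 and 42.4 FPKM in SAS libraries and 66.1, 78.7 and 74.4 FPKM in CTL libraries (log2 fold change -0.72, SE 0.11, adjusted p = 0.000613). The groups were apart in both, but the call of Dap3 was lost with voom on recovered reads (log2 fold change 0.27). Ptcd3, an RNA-binding protein of the small subunit, fell by 0.51 (SE 0.15, adjusted p = 0.0177) and lost its call without any 1 of the libraries other than CTL replicate 3, while Aurkaip1 (0.27) and Gadd45gip1 (0.29) did not pass.

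Of 27 factors that assemble the mitoribosome, 10 rose (37.0%) and 9 fell (33.3%), with a median of 0.04. Rbfa, which acts on small-subunit rRNA, averaged 62.4 FPKM in SAS and 17.8 FPKM in CTL libraries (log2 fold change 1.76), and Mrm3, a methyltransferase of the large rRNA, 12.3 FPKM in SAS and 41.3 FPKM in CTL libraries (log2 fold change -1.66). Noa1, a GTPase of assembly, rose by 1.62. Of 13 mitochondrial translation factors 5 rose (38.5%) and 2 fell (15.4%), with a median of 0.29. The initiator-tRNA formyltransferase Mtfmt (1.58) and the elongation factor Tufm (1.08) were among the rises, and the recycling factor Mrrf (-0.85) was among the falls. Of 16 mitochondrial aminoacyl-tRNA synthetases 8 rose and 5 fell (median 0.39); Cars2 (2.19) was among the rises and Yars2 (-1.52) among the falls.

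Of 22 genes of mitochondrial transcription and RNA processing, 4 rose and 11 fell (median -0.37). Trmt10c and Hsd17b10, which are subunits of the same mitochondrial tRNA-processing enzyme, moved apart: Trmt10c had 3.48, 3.44 and 3.77 FPKM in SAS libraries and 17.7, 21.1 and 11.3 FPKM in CTL libraries, and Hsd17b10 had 141, 137 and 122 FPKM in SAS libraries and 30.3, 35.3 and 47.0 FPKM in CTL libraries. In neither did the groups overlap (log2 fold changes -1.91 and 1.82, adjusted p = 0.000146 and 4.18e-05). Tbrg4, which stabilises mitochondrial mRNAs, fell by 1.63.

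Of 10 regulators of mitochondrial biogenesis, 8 fell (80.0%) and 2 did not pass (median -0.73). The coactivator Ppargc1a had 2.70, 2.51 and 1.5 FPKM in SAS libraries and 27.9, 18.7 and 9.96 FPKM in CTL libraries, with no overlap although the controls spread widely (log2 fold change -2.53, SE 0.34, adjusted p = 0.000316). Myc had 130, 133 and 121 FPKM in SAS libraries and 624, 686 and 663 FPKM in CTL libraries (log2 fold change -2.35, SE 0.10, adjusted p = 3.42e-06). Gabpb1, the partner of GABPA, fell by 1.46, Nrf1 by 0.68, Yy1 by 0.56, and Gabpa by 0.61 with overlapping groups (adjusted p = 0.0475, a call that was lost in 5 of the 6 fits without 1 library). Nfe2l2 fell by 1.20 and Pprc1 by 0.78. Esrra and Ppargc1b, both at 0.22, did not pass.

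The mRNAs that the mitoribosome translates, encoded by mitochondrial DNA, were higher in 10 of 13 cases (76.9%), and the other 3 did not pass (median 0.94). They took 3.80, 3.72 and 3.72% of recovered reads in SAS libraries and 2.10, 2.21 and 1.47% in CTL libraries, with no overlap. The largest changes among those that passed were those of mt-Nd6 (2.40), mt-Nd5 (1.61) and mt-Nd1 (1.00), and the call of mt-Nd1 was lost with quantile normalization, at a log2 fold change of 0.29. The part of this larger mitochondrial share in the members' values was not tested. Nuclear-encoded subunits of oxidative phosphorylation counted 35 rises (43.75%) and 12 falls (15.0%) among 80 tested (median 0.28), led by Ndufb10 (2.26), Uqcr11 (2.14) and Uqcrh (2.13). Cytosolic ribosomal proteins, the counterparts of the members outside mitochondria, had 15 rises (19.0%) and 18 falls (22.8%) among 79 tested (median -0.03). Rpl41 (1.78) and Rpl6 (1.75) were highest and Rpl22l1 (-1.45) lowest.

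**Figure D4:**
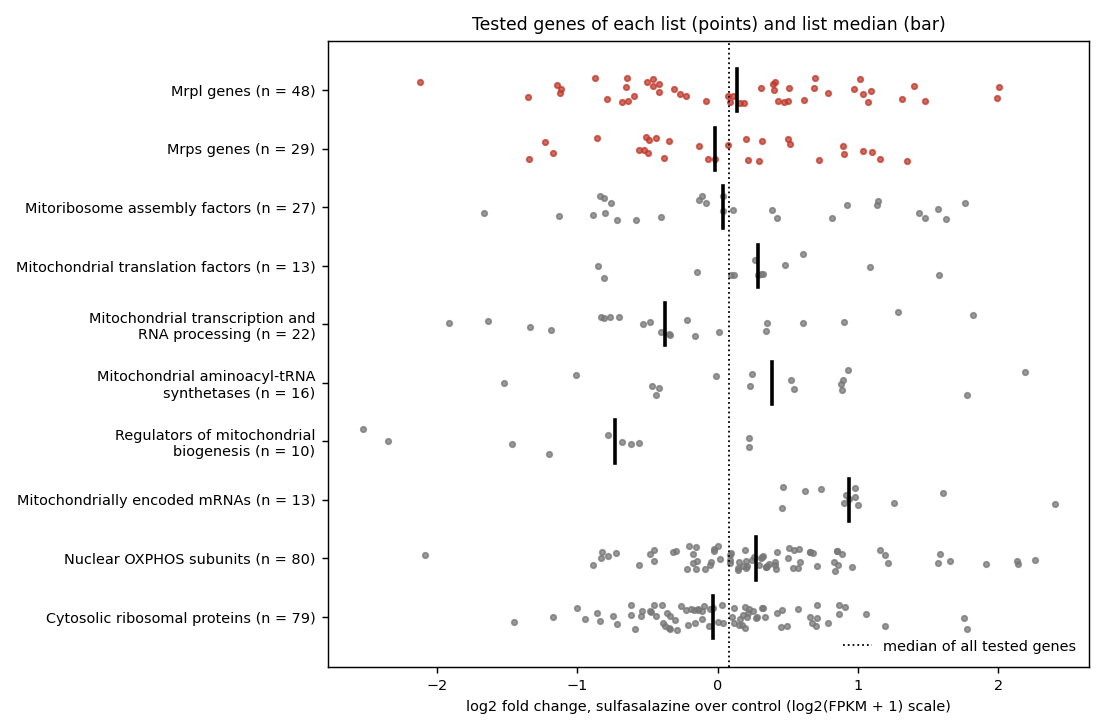
Log2 fold change, SAS over CTL on the log2(FPKM + 1) scale (x axis), of each tested gene of 10 lists (points; vertical scatter within a list carries no value), with the list's median as a bar and the median of all genes tested as a dotted line. Mrpl and Mrps genes spread to both sides; the medians run from -0.73 for the regulators to 0.94 for the mitochondrially encoded mRNAs.

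Changes of scale moved these medians. Over all genes tested the median log2 fold change was 0.08 with the FPKM as deposited and -0.04 with voom on recovered reads, a shift of over 0.1, and the members' median moved with it to -0.03. With median-of-ratios scaling the members' median was -0.01 beside -0.02 over all genes, and with quantile normalization 0.01 beside -0.02.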

How the data were processed

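Total RNA of 3 SAS and 3 CTL libraries was sequenced as 150-base read pairs; the labels name an extraction kit for plants and an rRNA depletion kit for bacteria. The build mm39 and the tools HTSeq 0.13.5, HISAT2 2.2.1, edgeR and fastp 0.23.0 are named, per the submitters' processing notes, without their roles. The authors deposited, per the file headers, an FPKM value and a library-size-adjusted signal per gene and library, with their own log2 fold change, p-value and adjusted p-value per gene. Gene starts and ends equalled those of GENCODE M21 on GRCm38 for 13849 of 13982 matched genes and all members, so coordinates are given on GRCm38.

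Genes that reached 1 FPKM in 3 or more libraries were tested on log2(FPKM + 1) with limma 3.58.1 in R 4.3.3 (intensity trend, two-sided, Benjamini-Hochberg). Whole reads were recovered from the steps of the FPKM values, and voom with TMM factors was run on them; no count table was used. In 5 simulations of SAS against CTL, 200 genes were changed among 10278 to 10288, at a fixed dispersion (variation between libraries) of 0.02. There limma recovered 28.4% of changes of 0.5 and 96.2% of changes of 1 on the log2 scale and called 0.0496% of unchanged genes. In the data 66.5% of genes passed and CTL replicate 3 stood apart. The simulations held neither feature, so their rates do not carry over to the calls given here. The closest pair of libraries, SAS replicates 1 and 2, differed by more than sampling noise (chi-square 6.55 per degree of freedom), so all 6 were kept.

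Full statistics are given for the 4 largest non-overlapping rises and falls and the 3 highest levels in each subunit, the stalk genes, the S18 paralogues, and members whose name and place in structures differ. From related lists, up to 3 called genes, all regulators and all mitoribosome proteins with other names are given. Members and lists were chosen with earlier results of these data known, and the promoters to print after motif counts were seen. Shared sequence was taken as exonic bases in other genes and 50-base words of their transcripts. Promoter windows are from RefSeq. One gene that this rule would name is not reported here.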

Additional observations from a re-analysis of the deposited data

How the results depend on the processing

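No called member changed direction in any alternative. With a minimum absolute log2 fold change of 1, 1990 genes rose and 1440 fell over all genes, 13 and 8 among members, 9 and 5 in the large subunit, 4 and 3 in the small one, and 29 and 15 in the related lists (88 and 67 without it). Leaving out 1 library gave 25 to 34 rises and 21 to 32 falls among members, 17 to 22 and 13 to 20 in the large subunit, and 8 to 12 and 7 to 12 in the small one; median log2 fold changes ran from 0.0646 to 0.196, 0.0993 to 0.22 and -0.0637 to 0.0378. Over all genes these fits gave 3042 to 4205 rises and 2437 to 3417 falls. Without replicate 3 of both groups, chosen after seeing the data, 14 small-subunit genes rose, beside 4252 of 10376 genes tested. The medians were 0.213 for members, 0.22 for the large and 0.0833 for the small subunit. Medians over all genes, members, large and small subunit were -0.0165, -0.0123, 0.032 and -0.122 with median-of-ratios scaling, and -0.037, -0.0338, 0.0168 and -0.143 with voom. With quantile normalization they were -0.0229 over all genes, 0.0117 for members and 0.0594 for the large subunit. Mrps30 ran from -0.142 to 0.0303 over the fits without 1 library, turning to 0.0303 without CTL replicate 3 and to 0.0612 without replicate 3 of both groups, and Ppargc1b to -0.163 with quantile normalization; the causes were not tested. Same-numbered replicates did not deviate together (correlations 0.0363, -0.1945 and -0.1741). With the replicate number as a block 27 members rose and 24 fell, beside 3649 rises and 2771 falls over all genes. A filter of 5 FPKM removed Mrpl1 and Mrpl47. Depth was least for Mrps18c and Mrpl1, with 83 and 93 reads in their lowest libraries.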
